A study of Homo sapiens with 6 samples.

Results

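The intermediate filament genes described here are 10 genes chosen by name: KRT7, KRT8, KRT18, KRT19, KRT80 and KRT81 among the keratins, VIM (vimentin), NES (nestin), LMNA (lamins A and C) and PLEC (plectin, the linker that ties filaments to other structures). All 10 were found among the 27394 genes of the deposited table, and all 10 were among the 22189 genes tested. PANC-1, an established line of human pancreatic cancer cells, was infected either with a control shRNA (shControl, 3 libraries) or with an shRNA against ZDHHC20 (shZDHHC20, 3 libraries), a palmitoyl acyltransferase that attaches a fatty acid to cysteines of other proteins. The sources used here do not say which of the study's shRNAs against ZDHHC20 was used for these libraries, nor the time of harvest. Directional RNA-seq libraries were made from total RNA, and the values below are normalized counts, that is, counts of each gene divided by 1 factor per library and not by gene length.

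Intermediate filaments are rope-like polymers that give cells mechanical strength. Keratins form filaments only as pairs of a type I and a type II protein, and KRT8 with KRT18 is the founding pair of simple epithelia, joined in pancreatic ducts by KRT7 and KRT19. Vimentin, a type III protein, is typical of mesenchymal cells and is often present in cultured carcinoma lines, whereas nestin is known from progenitor cells, lamins A and C line the inner face of the nuclear envelope, and plectin connects filaments to actin, microtubules and adhesion sites. The question here was how the RNA of these genes stood after silencing of ZDHHC20.

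The targeted gene was checked first. ZDHHC20 was at 2001, 2033 and 1940 normalized counts in the 3 shControl libraries and at 872, 779 and 893 in the 3 shZDHHC20 libraries, 42.6% of the control mean. The 6 libraries summed to between 17083277 and 18007664 normalized counts. shZDHHC20 replicate 2 stood apart from the other libraries of its group: the SD of log2 differences between pairs of libraries, over 4136 genes with a mean of at least 1000, was at most 0.0718 among shControl pairs and up to 0.198 among shZDHHC20 pairs, the high values being those with replicate 2, against 0.211 to 0.24 between groups. Mitochondrial genes held 4.01% of its summed values and 5.28% to 5.52% of those of the other 5 libraries. Each member is therefore given with and without this library, and the part of the library in the results was not tested beyond that. The library was picked after its distance was seen, so leaving it out narrows the spread by choice. Adjusted p-values from that fit can therefore be too small. Nothing in the labels says whether replicates were separate cultures, so p-values measure only the spread between these libraries.

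KRT81 was the only member that passed an adjusted p of 0.05 (limma with Benjamini-Hochberg adjustment over all genes tested), so 1 of 10 members was called, against 11.5% of all genes tested (4.61% called higher and 6.84% called lower). An unadjusted p under 0.05 was reached by 4 of 10 members, KRT8, KRT18, KRT81 and PLEC, beside 23.8% of all genes tested. No member was past a 1.5-fold change in either direction, a size that 26.0% of all genes tested reached. That share covers genes of every level. It was not taken for genes as abundant as most members, so it does not make the members unusually stable. Of the 10 log2 fold changes, 5 were above 0 and 5 were below, with a median of -0.02 beside 0.01 for all genes tested. The 3 libraries of each group did not overlap for 6 members, which were KRT19, KRT80 and KRT81 on the higher side and KRT8, KRT18 and NES on the lower side. Such separation held for 28.6% of all genes tested (13.8% higher, 14.8% lower) and for 49.3% of those with a mean of at least 1000, so it is common among genes as abundant as most of these.

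**Figure D1:**
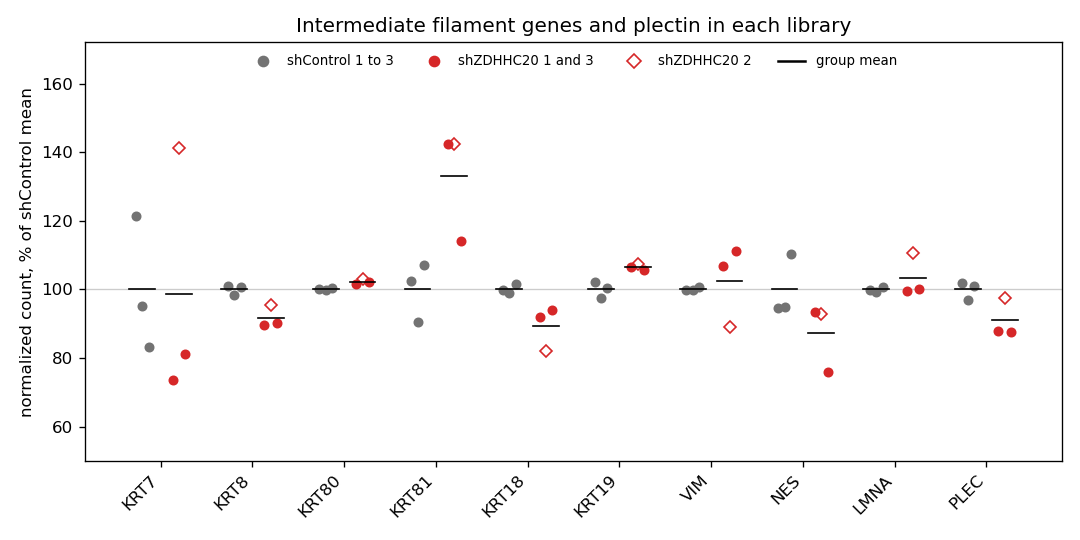
Normalized counts of the 10 members in each of the 6 libraries, as a percent of the gene's shControl mean (vertical axis, not starting at 0), with shControl in grey, shZDHHC20 replicates 1 and 3 as filled red points, shZDHHC20 replicate 2 as an open diamond and bars at the group means. The shZDHHC20 mean of KRT81 stands at 133% with all 3 libraries above the controls. For KRT7, KRT8, KRT18, VIM, LMNA and PLEC the diamond lies apart from replicates 1 and 3, furthest for KRT7.

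Among type II keratins, KRT8 was the most abundant member. It was at 56688, 55248 and 56624 normalized counts in shControl and at 50364, 53579 and 50644 in shZDHHC20. All 3 silenced libraries lay below all 3 controls, and the means were 56187 ± 813 and 51529 ± 1781 (SD, n = 3 each). KRT8 gave a log2 fold change of -0.13 (SE 0.0401, 95% interval -0.212 to -0.0389) with an adjusted p of 0.0631 in limma, so it was not called. Without shZDHHC20 replicate 2, the least reduced of the 3, the change was -0.15 with an adjusted p of 8.76e-06. Under quantile normalization it turned to 0.0054, with an adjusted p of 0.96. KRT8 lies on chromosome 12 at 52897187 to 52949954 on the minus strand (GRCh38, GENCODE 29), and its annotation overlaps that of KRT18 on the opposite strand.

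KRT80, a type II keratin of differentiating epithelia, lies in the same gene cluster (chromosome 12, 52168996 to 52192000, minus strand). It was at 11416, 11383 and 11457 normalized counts in shControl and at 11584, 11765 and 11676 in shZDHHC20. The libraries were tightly grouped, with coefficients of variation of 0.323% and 0.776%, and although the groups did not overlap, the shZDHHC20 mean was 102% of the control mean. For KRT80 the log2 fold change was 0.03 (SE 0.0392, 95% interval -0.0526 to 0.117) with an adjusted p of 0.681. Without shZDHHC20 replicate 2 it was 0.026 (adjusted p 0.466).

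KRT7, the type II keratin that marks ductal and glandular epithelia, was scarce here (chromosome 12, 52232520 to 52252186, plus strand). It was at 105, 82.4 and 72.1 normalized counts in shControl and at 63.6, 122 and 70.3 in shZDHHC20. The groups overlapped, and the highest value of all was in shZDHHC20 replicate 2. The log2 fold change of -0.06 (95% interval -0.574 to 0.445, adjusted p 0.91) leaves room for a change of either sign, and the estimate was -0.35 without that library (adjusted p 0.253).

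KRT81, a hair-type type II keratin, rose. It was at 220.3, 195 and 230.3 normalized counts in shControl and at 306, 306 and 245 in shZDHHC20. Every silenced library was above every control, although shZDHHC20 replicate 3 (245) was close to the highest control (230.3). The means were 215 ± 18.3 and 286 ± 35.1 (SD, n = 3 each), and the log2 fold change was 0.41 (SE 0.116, 95% interval 0.156 to 0.657) with an adjusted p of 0.0384 in limma. The call held in 10 of 17 alternatives and was lost when shControl replicate 1, 2 or 3 or shZDHHC20 replicate 1 or 2 was left out, with adjusted p-values of 0.105, 0.172, 0.0767, 0.17 and 0.0501 in that order. It was also lost with replicate number as a block (adjusted p 0.0639) and without a mean-variance trend in the model (adjusted p 0.193). Over these 7 fits the lowest log2 fold change was 0.34, without shControl replicate 2.

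KRT81 lies on chromosome 12 at 52285913 to 52291534 on the minus strand, inside the span that the annotation gives KRT86, a hair keratin gene on the plus strand with a near-identical coding sequence. Over 1454 aligned coding bases, 1361 were identical (93.6%) and 93 differed.

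Of the 1880 windows of 50 bases in the KRT81 transcript, 38.4% also occurred in transcripts of KRT86, and 44.6% occurred in those of any other gene. How the authors' counting treated such reads, and whether it used strand, is not given in the sources used here, so the split between the pair is uncertain. KRT86 itself was at 133, 111 and 135 normalized counts in shControl and at 125, 157 and 162 in shZDHHC20, with overlapping groups and a log2 fold change of 0.22 (adjusted p 0.396). The sum of both genes was 354, 306 and 365 in shControl and 431, 463 and 407 in shZDHHC20. It does not depend on that split, but it would miss shared reads that were dropped or given to other genes. The sums did not overlap and gave a log2 ratio of 0.34, at the smallest p that an exact two-sided permutation test allows with 3 against 3 (p = 0.1).

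Among type I keratins, KRT18 is the gene that sits beside KRT8 in the type II cluster (chromosome 12, 52948871 to 52952901, plus strand). It was at 19598, 19439 and 19943 normalized counts in shControl and at 18078, 16129 and 18505 in shZDHHC20. All silenced libraries were below all controls, with replicate 2 the lowest. The means were 19660.2 ± 258 and 17570.4 ± 1267 (SD, n = 3 each), and the log2 fold change was -0.16 (SE 0.051, 95% interval -0.275 to -0.0546) with an adjusted p of 0.0549, just short of a call. Without replicate 2 the change was smaller, -0.10, with an adjusted p of 0.00215.

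KRT8 and KRT18 proteins pair in equal amounts, so the ratio of their RNAs was taken within each library, where it does not depend on scaling. KRT18 to KRT8 was 0.346, 0.352 and 0.352 in shControl and 0.359, 0.301 and 0.365 in shZDHHC20. Replicates 1 and 3 of the silenced group were above the controls and replicate 2 was below them. The exact permutation test gave p = 1.0.

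KRT19, the smallest keratin and a ductal marker, lies outside the cluster (chromosome 17, 41523617 to 41528308, minus strand). It was at 6044, 5771 and 5937 normalized counts in shControl and at 6297, 6364 and 6250.4 in shZDHHC20. The silenced libraries were all higher and close together, and the means were 5917 ± 137 and 6304 ± 56.8 (SD, n = 3 each). This gave a log2 fold change of 0.09 (SE 0.0431, 95% interval -0.00158 to 0.185) with an adjusted p of 0.218. Without replicate 2 it was 0.08 (adjusted p 0.0527).

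For VIM the call depended on shZDHHC20 replicate 2. On chromosome 10 at 17228259 to 17237593 (plus strand), vimentin was at 21095, 21098 and 21295 normalized counts in shControl and at 22611, 18869 and 23526 in shZDHHC20. The controls agreed within a coefficient of variation of 0.542%, while shZDHHC20 replicates 1 and 3 were above them and replicate 2 was below, at 81.8% of the mean of the other two. The log2 fold change was 0.03 (SE 0.0658, 95% interval -0.114 to 0.169, adjusted p 0.853) with all libraries and 0.12 without replicate 2 (95% interval 0.08 to 0.168, adjusted p 0.000583).

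NES, the large filament protein of progenitor cells, was near the level of KRT81 before division by length (chromosome 1, 156668763 to 156677397, minus strand). It was at 217, 218 and 253 normalized counts in shControl and at 214, 213 and 174 in shZDHHC20. The groups nearly touched, with 217 the lowest control and 214 the highest silenced library. For NES the log2 fold change was -0.20 (SE 0.119, 95% interval -0.454 to 0.0584) with an adjusted p of 0.348, and -0.25 without replicate 2 (adjusted p 0.196).

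LMNA, from which lamins A and C are made by alternative splicing, lies on chromosome 1 at 156082573 to 156140089 (plus strand). It was at 13412, 13348 and 13548 normalized counts in shControl and at 13378, 14852 and 13432 in shZDHHC20. Replicates 1 and 3 of the silenced group fell inside the control range, and replicate 2 was at 110.8% of their mean. The log2 fold change was 0.05 (SE 0.0473, 95% interval -0.056 to 0.148, adjusted p 0.612), and -0.0033 without replicate 2 (95% interval -0.048 to 0.0415, adjusted p 0.94).

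PLEC, on the minus strand of chromosome 8, was at 18849, 17934 and 18659.8 normalized counts in shControl and at 16239, 18027 and 16167 in shZDHHC20. Replicates 1 and 3 of the silenced group were below all controls, whereas replicate 2 was inside their range. The log2 fold change was -0.14 (SE 0.0488, 95% interval -0.243 to -0.0329) with an adjusted p of 0.0929, and -0.19 without replicate 2 (95% interval -0.239 to -0.14, adjusted p 4.51e-05). Without that library, 4 of 10 members were called, KRT8, KRT18 and PLEC lower and VIM higher, beside 20.0% of all genes tested in the same fit, and KRT81 was not among them. In that fit 8.93% of genes were called higher and 11.1% lower. Those 4 changes lay between -0.19 and 0.12 on the log2 scale. Their p-values can be too small, since the library left out was picked for its distance from the others.

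**Figure D2:**
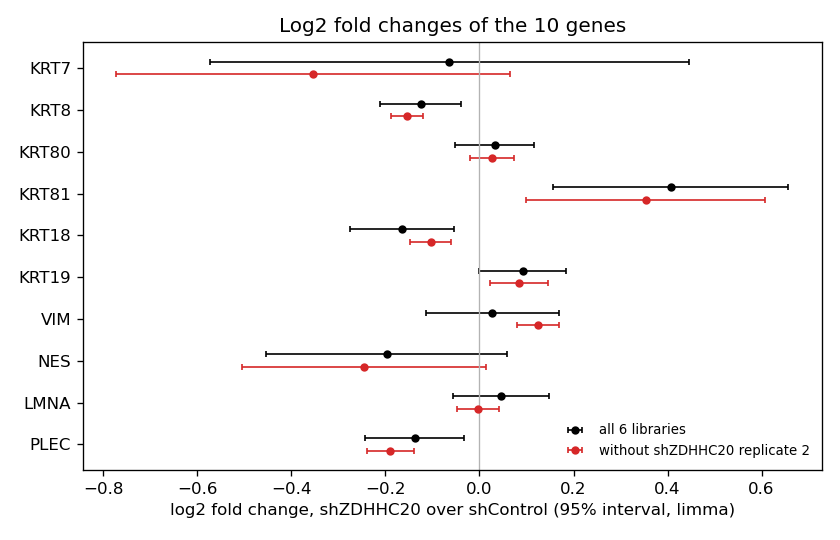
Log2 fold change, shZDHHC20 over shControl, of each member with its 95% interval from limma, for all 6 libraries (black) and without shZDHHC20 replicate 2 (red). The interval of KRT81 lies above 0 in both fits (0.156 to 0.657 with all libraries), and that of VIM spans 0 with all libraries and lies above it without replicate 2.

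Replicate 2 did not move the members in 1 direction. Against the mean of shZDHHC20 replicates 1 and 3, it was lower for VIM (81.8%) and KRT18 (88.2%), at 101% for KRT19 and KRT80, and higher for KRT8 (106%), NES (109.8%), LMNA (110.8%), KRT81 and PLEC (111% each) and KRT7 (182%).

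The order of RNA levels can be read only after division by transcript length. Per kilobase of the principal transcript, the shControl means were 26428 normalized counts for KRT8, 12587 for KRT18 and 9912 for VIM, so the pair of simple epithelial keratins and vimentin were the 3 leading members in the same cultures. KRT19 at 4257 and LMNA at 4212 overlapped in range and cannot be ordered, and KRT80 followed at 2959 and PLEC at 1212. KRT81 at 112 was the first of the scarce members, and KRT7 at 49.3 and NES at 41.3 overlapped. Where the union of all exons was used as the length, KRT80 moved from 6th to 4th place and NES passed KRT7. Before division by length the 10 genes held 0.822%, 0.805% and 0.822% of the summed values in shControl and 0.792%, 0.821% and 0.793% in shZDHHC20 (exact permutation p = 0.2), and KRT8 alone made up 38.3% of that sum in shControl. In bulk RNA, fewer cells with a transcript and less transcript in each cell cannot be told apart.

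**Figure D3:**
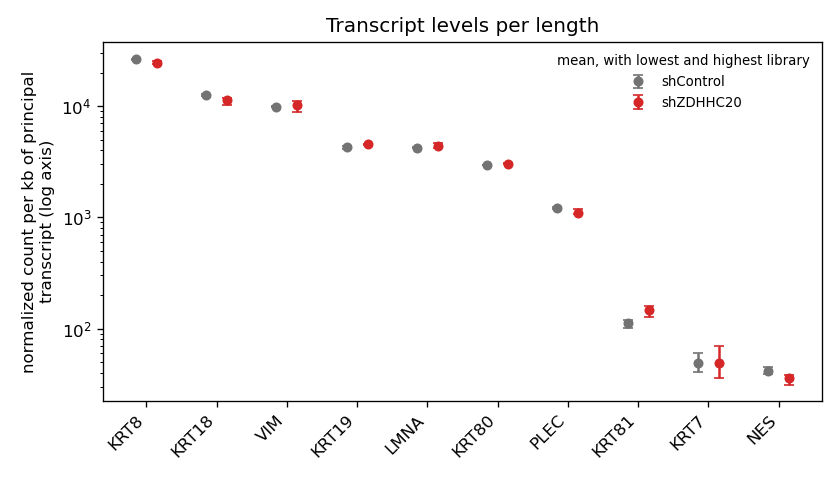
Normalized counts per kilobase of principal transcript for the 10 members on a log axis, with points at the group means and whiskers from the lowest to the highest of the 3 libraries. KRT8, KRT18 and VIM lead, and the shControl means of KRT81, KRT7 and NES are 112, 49.3 and 41.3.

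The other members of the filament family were few and mostly low. Of 49 other keratin genes, 16 were in the table and 8 were tested. None of the 8 was called, none had an unadjusted p under 0.05 in limma, and none had groups that did not overlap. The shares over all genes tested were 11.5%, 23.8% and 28.6% in that order. With 8 genes, these counts do not show that the other keratins were unusually stable. KRT10, the partner of KRT1 in skin, was the most abundant of them. It was at 412, 394 and 392 normalized counts in shControl and 304, 414 and 309.9 in shZDHHC20. KRT10 was the 1 called without replicate 2, in a fit that called 20.0% of all genes tested. KRT17, a stress-linked keratin of some pancreatic tumours, was at no more than 4.81 in any library, and KRT5 and KRT14 could not be tested.

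Of 13 other type III, type IV and lens filament genes, 9 were tested and 2 called, both lower, beside 11.5% of all genes tested. The median over the 9 was nonetheless positive at 0.28, the value of BFSP1 (adjusted p 0.149). BFSP1 was at 163 to 201 normalized counts in shControl and 210 to 236 in shZDHHC20. An unadjusted p under 0.05 was reached by 6 of the 9, beside 23.8% of all genes tested. These were SYNM, IFFO2 and NEFH on the lower side and PRPH, SYNC and BFSP1 on the higher side. SYNM (synemin), which joins vimentin filaments, fell from 1260.1, 1184 and 1156 to 962, 964 and 1029 normalized counts (log2 fold change -0.28, SE 0.0629, adjusted p 0.01), a call that held in 14 of 17 alternatives and was lost without the trend, shControl replicate 1 or shZDHHC20 replicate 1. IFFO2, an intermediate filament family orphan, fell from 1604, 1549 and 1608 to 1309, 1474 and 1268 (-0.24, SE 0.065, adjusted p 0.0327). Its call held in only 9 of 17 alternatives and was lost when any library other than shZDHHC20 replicate 2 was left out, under quantile normalization, with the replicate block and without the trend (adjusted p up to 0.219). Of the other 7, 6 were at no more than 26.3 in any library, and BFSP1 was the exception. Among these 6, PRPH (peripherin) was at 4.04 to 11 in shControl and 16 to 24.4 in shZDHHC20 without being called (adjusted p 0.0862).

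At the nuclear lamina, 4 of 16 tested B-type lamins and lamin partners were called, 1 higher and 3 lower, beside 11.5% of all genes tested (4.61% higher, 6.84% lower), with a median of -0.10. Their difference from LMNA was not tested. LMNB1, which encodes lamin B1, fell from 3691, 3737 and 3806 normalized counts to 3291, 2728 and 3371 (log2 fold change -0.26, SE 0.0701, adjusted p 0.0265). Without shZDHHC20 replicate 2, its lowest library, the change was -0.17, and the call was lost without any 1 shControl library, without shZDHHC20 replicate 1 or without the trend (adjusted p up to 0.262). TMPO, the lamina-associated polypeptide 2 gene, and LEMD2, an inner nuclear membrane protein gene, fell by 0.25 and 0.20 on the log2 scale (adjusted p 0.033 and 0.0348). These calls held in 11 and 9 of 17 alternatives and were both lost when any 1 shControl library or shZDHHC20 replicate 3 was left out, under quantile normalization and without the trend (adjusted p up to 0.272 and 0.212), and that of LEMD2 also without shZDHHC20 replicate 1 and with the replicate block. SYNE2, the nesprin-2 gene of the outer nuclear membrane, rose from 2468, 2412 and 2457 to 3021, 2809 and 3166 (0.29, SE 0.0547, adjusted p 0.00363), called in 16 of 17 alternatives. Lamin B2 (LMNB2) showed the pattern of PLEC, at 5430.3, 5397 and 5552 in shControl and 4444, 5532 and 4305 in shZDHHC20, and was not called (adjusted p 0.107). The 6 genes that process prelamin A, among them ZMPSTE24 and the farnesyltransferase subunits FNTA and FNTB, included none called and 1 with an unadjusted p under 0.05. The shares over all genes tested were 11.5% and 23.8%, so with 6 genes these counts do not show unusual stability.

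PLEC belongs to the plakins, and its relative PPL gave the clearest change among the genes around the filament system. PPL (periplakin), which links keratin filaments to the cell cortex and desmosomes, rose from 4965, 4542 and 5016 normalized counts to 7212, 6793 and 7303. The lowest silenced library was well above the highest control, the log2 fold change was 0.55 (SE 0.0519, adjusted p 2.27e-05), and the call held in 17 of 17 alternatives. It was the 1 gene called of 9 tested plakins and linkers, whose median was 0.01, beside 11.5% called of all genes tested. DSP (desmoplakin), which anchors keratins at desmosomes, was at 2715, 2815 and 2669 in shControl and 2823, 2503 and 2963 in shZDHHC20 (adjusted p 0.938). EVPL (envoplakin), the partner of periplakin, had an adjusted p of 0.783. Of 4 genes at the adhesion sites that plectin binds, ITGA6, ITGB4, CD151 and COL17A1, none was called, and 0 had an unadjusted p under 0.05 in limma. Over all genes tested these shares were 11.5% and 23.8%, so 4 genes are too few to read as stable.

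**Figure D4:**
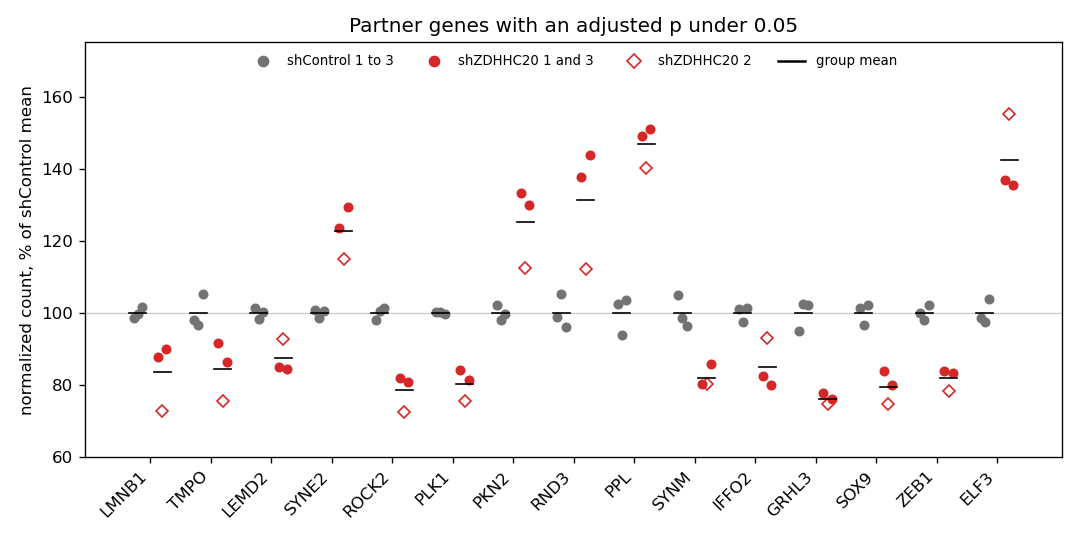
Normalized counts, as a percent of the gene's shControl mean (vertical axis, not starting at 0), of the 15 genes called in the lists around the filament system, with shControl in grey, shZDHHC20 replicates 1 and 3 as filled red points, replicate 2 as an open diamond and bars at the group means. PPL, ELF3, RND3, PKN2 and SYNE2 lie above their controls in all 3 silenced libraries, and the other 10 genes lie below them.

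Of 22 tested partners and regulators of filaments, 4 were called, beside 11.5% of all genes tested. Their median log2 fold change was -0.04. ROCK2, a kinase that phosphorylates vimentin, fell from 1197, 1228 and 1236 normalized counts to 1001, 887 and 987 (log2 fold change -0.35, SE 0.065, adjusted p 0.00341). PLK1, a mitotic kinase that also acts on vimentin, fell from 1738, 1738 and 1729 to 1462, 1310.1 and 1414 (-0.32, SE 0.0582, adjusted p 0.00331). The protein kinase gene PKN2 and RND3, which encodes a small GTPase, rose by 0.32 and 0.39 on the log2 scale (adjusted p 0.00446 and 0.00746). The calls of ROCK2, PLK1 and PKN2 held in 16 of 17 alternatives and that of RND3 in 14, being lost without shControl replicate 3, shZDHHC20 replicate 1 or the trend.

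Of 14 tested transcription regulators with keratin genes among their known or proposed targets, 4 were called, beside 11.5% of all genes tested. Their median log2 fold change was -0.22. ELF3, an ETS factor of epithelia, rose from 1122, 1109.8 and 1182 normalized counts to 1556, 1766 and 1542 (log2 fold change 0.51, SE 0.066, adjusted p 0.00027). GRHL3, SOX9 and ZEB1, a grainyhead factor of the epidermis, a ductal progenitor factor and a repressor of epithelial genes, fell by 0.39, 0.33 and 0.29 (adjusted p 0.00103, 0.00146 and 0.02). The calls of ELF3, GRHL3 and SOX9 held in 16 of 17 alternatives and that of ZEB1 in 12, being lost without any 1 shControl library, shZDHHC20 replicate 1 or the trend. In all, 15 genes of these lists were called, beside 11.5% of all genes tested. In the order given above, the lists held 8, 9, 16, 6, 9, 4, 22 and 14 tested genes. Without replicate 2 the number called was 30, in a fit that called 20.0% of all genes tested. It was 9 without shControl replicate 1, shControl replicate 3 or shZDHHC20 replicate 1. Those fits called 1233 of 22244, 1233 of 22213 and 1375 of 22033 genes.

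The labelled cell type was checked against markers. Of 9 tested ductal epithelial markers, 3 were called higher, EPCAM (log2 fold change 2.89), CDH1 (1.13) and MUC1 (0.38, a call that held in 9 of 17 alternatives), and 1 lower, SOX9 (-0.33). Over all genes tested, 4.61% were called higher and 6.84% lower. The summed ductal markers were 88832 to 91101 normalized counts in shControl and 83318 to 84695 in shZDHHC20, a sum carried by KRT8 and KRT18. Acinar markers summed to at most 26.5, endocrine markers to at most 6.36, leukocyte markers to at most 45.1 and endothelial markers to at most 59.6 in any library. Fibroblast and stellate markers summed to 3969 to 4042 in shControl and 3195 to 3479 in shZDHHC20, nearly all of it COL1A1 (-0.27, adjusted p 0.00288). DCN, PDGFRA and COL1A2 were listed but were not found among the genes of the deposited table. COL3A1, the next most abundant of them, was at 67.7 to 82.1 in shControl and 78.9 to 91.2 in shZDHHC20. LUM was at 0 in all 3 shControl libraries and at 3.18, 0.939 and 2.89 in shZDHHC20, and ACTA2 was at no more than 3.18 in any library. The part of these differences in the results for the members was not tested.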

How the data were processed

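PANC-1 RNA-seq libraries (3 shControl, 3 shZDHHC20) were analysed from the authors' deposited table of 1 value per gene and library. The authors normalized this signal before they deposited it, under the name FPKM. Yet 100% of the values in each library were whole multiples (within 0.01) of the smallest value above 0, as for counts divided by 1 factor per library, with no division by length. If 1 step is 1 read, the libraries hold 16575546 to 18441049 reads. Intervals cover the spread between libraries. The submitters' processing notes name hg19, and the aligner, counter and test are not given in the sources used here. Columns named NC and siZDHHC20 were assigned by their group and number, siZDHHC20 being shZDHHC20 in the labels.

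Gene names came from the reference table (27175 of 27394 identifiers) and GENCODE 29. Positions and transcripts are those of GENCODE 29 on GRCh38. A pseudocount of 0.1 was added, log2 values were fitted for genes whose mean reached 1 with limma 3.58.1 (lmFit, eBayes with a mean-variance trend, R 4.3.3), and two-sided p-values received a Benjamini-Hochberg adjustment across the genes tested. Fold changes are on the log2(value + 0.1) scale. Single values were compared by exact permutation tests in SciPy 1.17.1. The script was tested on simulated data.

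The members and lists were chosen with earlier results of these data known. Named genes are the 10 members, up to 4 called genes of each list, genes that overlap or nearly copy a member, and the 5 genes most like the called member. Some single items are not reported here. Others were named after their values were seen: KRT10, KRT17, KRT5, KRT14, PRPH, NEFH, SYNC, BFSP1, LMNB2, DSP, EVPL, the prelamin A enzymes and the adhesion genes. The lists hold other keratins, other type III, IV and lens filaments, B-type lamins and partners, prelamin A processing, other plakins, filament partners and regulators, adhesion sites of plectin, transcription regulators of keratin genes, and markers of ductal, acinar, endocrine, fibroblast, leukocyte and endothelial cells. Other settings tried were robust moderation, no trend, quantile normalization, median-ratio scaling, a pseudocount of 1 or 0.01, a minimum mean of 10 or none, a GC correction (spline with 4 degrees of freedom), a replicate block, both together, and leaving out each library.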

Additional observations from a re-analysis of the deposited data

How the results depend on the processing

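With all 6 libraries 2541 genes were called, against 351 without the mean-variance trend and 1233 to 4454 when 1 library was left out, the highest being without shZDHHC20 replicate 2 and the lowest without shControl replicate 1 or 3. Of the members, 1 was called with all libraries, 2 with a pseudocount of 1, with a mean of at least 10 or with the GC correction, 4 with robust moderation (KRT8, KRT18, KRT81 and PLEC, beside 12.6% of all genes) and 0 without the trend. The 3 fits with 2 called members called 2719 of 22189 genes (pseudocount of 1), 2936 of 15101 (mean of at least 10) and 3151 of 22189 (GC correction). Leaving out 1 library gave 0 to 4 called members, 0 without any 1 shControl library or shZDHHC20 replicate 1, 4 without shZDHHC20 replicate 2 and 2 without shZDHHC20 replicate 3. The fits with 0 called members called 1233 to 1375 genes. Without shZDHHC20 replicate 2, 4454 of 22258 genes were called, and without replicate 3, 1773 of 22283. The called genes of the surrounding lists numbered 15, against 1 without the trend and 9 to 30 when 1 library was left out. Over all genes, the same fits called 2541, 351 and 1233 to 4454. KRT8 turned to 0.0054 under quantile normalization (adjusted p 0.96). When 1 library was left out, KRT7 ranged from -0.35 to 0.12, VIM from -0.035 to 0.12 and LMNA from -0.0033 to 0.072. The difference in the members' share of the summed values, -0.0145 percentage points, was 0.0015 per kilobase of exon. The log2 ratio of KRT18 to KRT8, -0.034, ranged from -0.085 to 0.05 when 1 library was left out. The causes were not tested. Tests on whole read counts were planned but not run, since the values were taken as a signal. KRT7, KRT81 and NES were under 310 normalized counts in every library, and the part of counting error in their spread was not tested.

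No pairing by replicate number was seen: deviations of same-numbered libraries correlated at -0.0948, -0.156 and -0.0771 over 10908 genes. Those of differently numbered libraries correlated at -0.0918 to 0.154. With shZDHHC20 replicate 2 so far from its group, these values cannot decide whether cultures were paired. With replicate number as a block, 1942 genes and 0 members were called, and with the block and the GC correction 2807 genes and 1 member (KRT81).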

Other observations

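The type II keratin cluster, from KRT80 to KRT18 on chromosome 12 (52168996 to 52952901, 784 kb), held 52 annotated genes, of which 21 were in the table and 15 were tested. KRT81 was the 1 gene of the 15 that was called, beside 11.5% of all genes tested. KRT80, KRT8 and KRT18 held at least 99.2% of the summed values of the cluster in every library.

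Processed copies of KRT8 and KRT18 are scattered over the genome, and 32.7% of the 50-base windows of the KRT8 transcript and 31.8% of those of KRT18 occur in transcripts of other genes. The KRT8 pseudogenes in the table summed to 249 to 327 normalized counts, at most 0.596% of KRT8 in the same library, and 0 of 8 tested were called. Those of KRT18 summed to 19.7 to 33.9, at most 0.188% of KRT18, and 0 of 9 tested were called. Of all genes tested, 11.5% were called. VIM-AS1, antisense to VIM, was at 25 to 41.2 normalized counts (adjusted p 0.956), KRT7-AS was at no more than 5.02 (adjusted p 0.628), and KRT87P and LINC00592, which overlap KRT7 and KRT80, had adjusted p-values of 0.821 and 0.994.

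Among the genes whose log2 values were most like those of KRT81 over the 6 libraries, where 10907 genes with a mean of 100 or more were searched, were GMPR2 (Pearson r 0.987), TRIM26 (0.982), KLHL18 (0.982) and PIGG (0.98). These correlations include the difference between groups, and the 6 libraries are 3 of each group.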
